A study of Homo sapiens with 6 samples.

Results

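The genes commonly read as markers of breast stem cells or of pluripotency were followed across the RNA-Seq of 21NT cells that overexpress TBX3. They were taken by symbol as 10 named genes: the surface proteins CD44, CD24, EPCAM and PROM1, the aldehyde dehydrogenases ALDH1A1 and ALDH1A3, and the transcription factors SOX2, NANOG, KLF4 and SOX9. Of the 20824 genes with a row in the expression table, 9 were members, and NANOG was not analysed here. The 21NT line is an established human breast cancer cell line used as a model of ductal carcinoma in situ. All 3 lines compared were 21NT cells stably transfected with the pcDNA3.1 vector and grown under G418 selection: the vector was empty in the control line (EV), carried TBX3iso1 in another and TBX3iso2 in the last. The TBX3 isoforms are splice forms of a T-box transcription factor that differ by a short insertion within the DNA-binding domain. Each line was 1 transfected line sequenced in 2 libraries, so the 6 libraries measure the lines and not independent transfections.

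Breast cancer cells able to start tumours are often described by a surface profile of high CD44 and low CD24, with EPCAM marking epithelial cells and PROM1 (CD133) used as a further marker. Aldehyde dehydrogenase activity is the other common marker, and ALDH1A1 and ALDH1A3 are retinaldehyde dehydrogenases, which turn retinaldehyde into retinoic acid. SOX2, NANOG and KLF4 belong to the transcription factor network of embryonic stem cells, in which TBX3 also takes part, and SOX9 is a regulator of mammary progenitor cells. None of these transcripts marks a stem cell on its own, and bulk RNA gives the mean over all cells of a culture.

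TBX3 was described first, as a check of the labels. TBX3 (chromosome 12, 115108060 to 115121980 in GRCh37) was at 8.52 and 8.24 RPKM in EV, 13.1 and 11.4 in TBX3iso1, and 17.5 and 15.5 in TBX3iso2. RPKM is a read number divided by the length of the transcript and by the total alignments, and here it sums both isoforms and any transgene reads that aligned to the gene. Both transfected lines lay above EV with no overlap, as their labels say, although the log2 difference of TBX3iso1 (0.54, Benjamini-Hochberg adjusted p = 0.00378 in limma) did not reach the 1.5-fold limit and that of TBX3iso2 (0.97, adjusted p = 0.000257) was over it. The TBX3iso1 difference passed the limit with median-ratio scaling (0.59), with quantile normalization (0.63) and without TBX3iso1 replicate 2 (0.64), and without variance moderation its adjusted p was 0.0587, within a range of 0.000382 to 0.0587 over 16 alternatives in limma. TBX3 was also higher in TBX3iso2 than in TBX3iso1 (log2 difference 0.43, adjusted p = 0.0275 in limma), under the fold limit. Where the isoforms are said to differ below, these 2 lines are meant. The isoform, the TBX3 level and the transfected line cannot be told apart. Depth was similar, at 43176600 to 54512400 alignments in a library. Of 9 breast epithelial markers, 8 averaged at least 0.5 RPKM (KRT14 was near 0), and their summed level was 2493 to 2595 RPKM in EV, 1950 to 2123 in TBX3iso1 and 2150 to 2370 in TBX3iso2. Single epithelial markers did not all move with this sum. Against EV, KRT5 rose in both lines (log2 differences 1.20 and 1.25) and ESR1 fell in both (-1.03 and -0.79). CDH1 was called lower in TBX3iso1 (-0.70) and was at -0.51 in TBX3iso2, under the fold limit. KRT19 (-0.72) and ERBB2 (-0.75) were called lower in TBX3iso2 and were at -0.57 and -0.54 in TBX3iso1, under the fold limit. GATA3 was called lower in TBX3iso2 (-1.07) and was at -0.06 in TBX3iso1. Of these, only GATA3 was called between the TBX3 lines. KRT8 and KRT18 stayed within the 1.5-fold limit in both lines. Most markers of other cell types were low. In EV, however, CD14 averaged 10.1 RPKM and PECAM1 7.29, and both fell in both TBX3 lines (log2 differences -2.02 and -2.03, and -2.56 and -2.41). COL1A1 rose in both (0.77 and 0.70). Of 6 fibroblast markers, 1 averaged at least 0.5 RPKM (COL1A1), with sums of 4.60 to 4.86 in EV, 8.12 to 8.69 in TBX3iso1 and 7.14 to 7.58 in TBX3iso2. Of the 4 leukocyte markers in the table, 2 did so (CD14 and CSF1R), with sums of 11.3 to 12.6, 3.78 to 4.31 and 3.59 to 3.77, whereas the pan-leukocyte gene PTPRC was at 0.0102 RPKM or less in every library. Of 3 endothelial markers, 1 did so (PECAM1), with sums of 7.20 to 7.56, 1.17 to 1.18 and 1.23 to 1.40, and VWF was at 0.0179 RPKM or less in every library.

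In EV cells the 9 markers spanned a wide range of levels. EPCAM was the highest at a mean of 184 RPKM, followed by CD24 (79.9), CD44 (53.0), ALDH1A3 (49.1), SOX9 (18.5), KLF4 (7.85) and ALDH1A1 (1.44). PROM1 and SOX2 came last, and their EV libraries overlapped, so their order could not be told. In both TBX3 lines ALDH1A3 and CD44 stood above CD24. The libraries of ALDH1A3 and CD44 overlapped each other within each TBX3 line, and CD24 lay below both. The order of genes in RPKM depends on the transcript lengths used, and where CD24 reads were counted is not known.

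**Figure D1:**
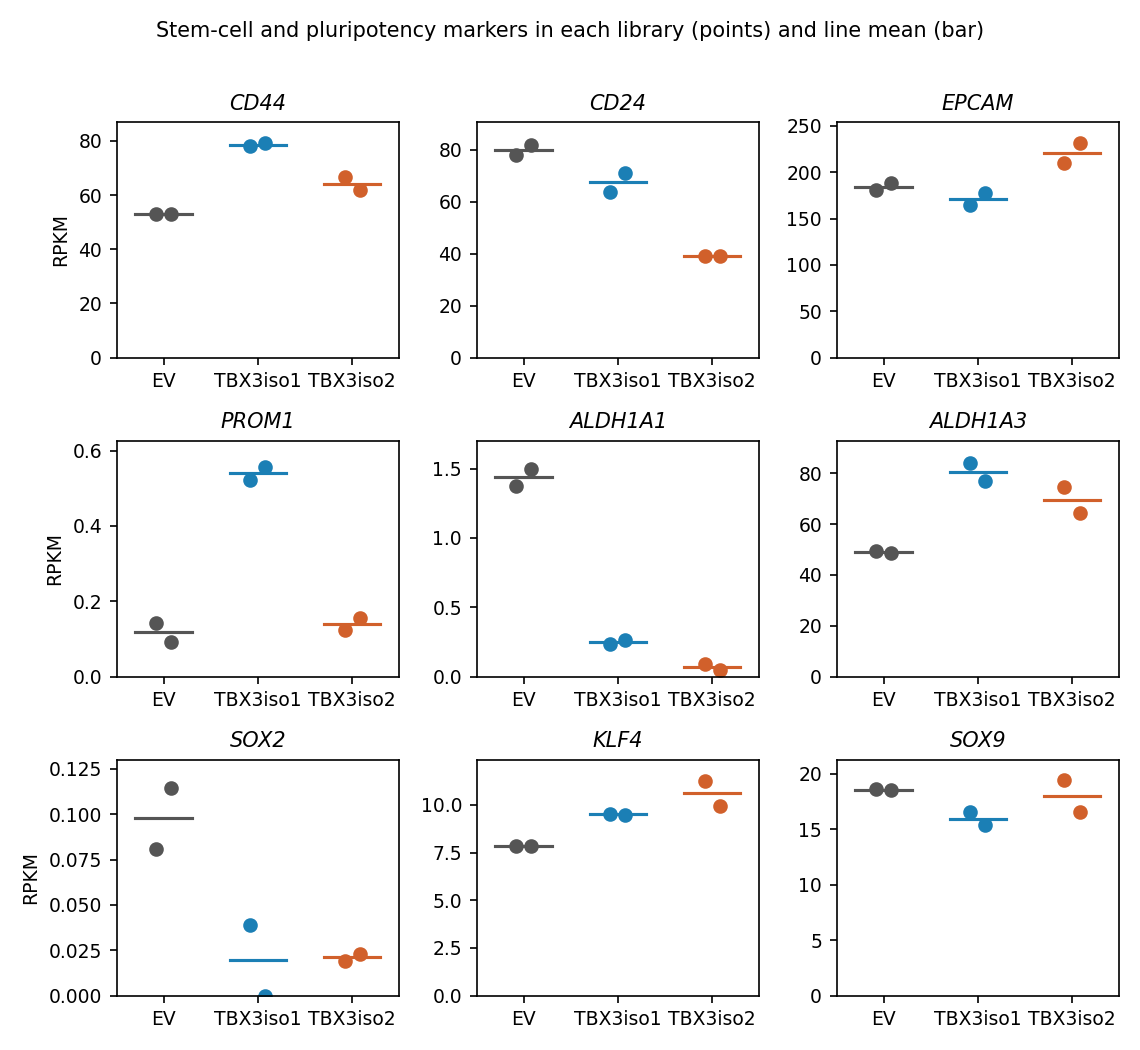
RPKM (vertical axes, linear, from 0) of the 9 markers with a row in the table, for EV, TBX3iso1 and TBX3iso2 (horizontal axes). Points are the 2 libraries of a line and bars their mean. ALDH1A1 is lower and CD44 and ALDH1A3 are higher in all 4 TBX3 libraries than in both EV libraries, CD24 is lowest in TBX3iso2, and PROM1 stands out in TBX3iso1.

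Promoter sequences were examined because TBX3 binds DNA, through the T-box element. Entries for 8 of the 10 members were found in RefSeq (GRCh38.p14), and EPCAM and SOX9 were without one. Only the 250 bases before each transcription start were searched, on both strands. The 8 members had 13 windows, since a gene can have several starts. The element AGGTGTGA was found in none of them, as against 0.786% of all 35116 promoter windows. Its shorter form GGTGTGA, which lies within the longer, was found in 1 of the 13 windows, that of SOX2, on the plus strand with its first base at position -248 from the start. It was found in 2.76% of all windows, or before 3.38% of the genes with a window. Windows are shown for the member with the match and for the 2 aldehyde dehydrogenases that moved in opposite directions below: chr3:181711675-181711924 (plus strand) for SOX2, chr9:72953054-72953303 (minus strand) for ALDH1A1 and chr15:100879581-100879830 (plus strand) for ALDH1A3, each written 5′ to 3′ along its gene, with capitals marking GGTGTGA.
SOX2: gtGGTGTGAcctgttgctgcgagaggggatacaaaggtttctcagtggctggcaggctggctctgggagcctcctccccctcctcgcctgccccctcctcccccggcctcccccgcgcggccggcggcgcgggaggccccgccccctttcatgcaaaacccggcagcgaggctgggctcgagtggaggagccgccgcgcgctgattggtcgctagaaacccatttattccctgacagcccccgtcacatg
ALDH1A1: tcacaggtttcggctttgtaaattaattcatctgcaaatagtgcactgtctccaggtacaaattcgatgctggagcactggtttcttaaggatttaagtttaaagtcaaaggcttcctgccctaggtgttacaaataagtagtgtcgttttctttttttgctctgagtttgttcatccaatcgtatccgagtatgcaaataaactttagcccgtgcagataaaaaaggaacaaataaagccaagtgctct
ALDH1A3: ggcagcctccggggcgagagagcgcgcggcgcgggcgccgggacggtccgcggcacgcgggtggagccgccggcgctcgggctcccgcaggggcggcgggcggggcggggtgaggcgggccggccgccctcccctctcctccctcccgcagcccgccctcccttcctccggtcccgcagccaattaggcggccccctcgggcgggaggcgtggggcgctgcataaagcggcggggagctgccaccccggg
The ALDH1A1 window was AT-rich, with 38.4% G and C, against 82.4% for ALDH1A3, 68.8% for SOX2 and a median of 58.0% over all windows. A match is a description of the letters and not a binding site, and a window without one says nothing about binding elsewhere.

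Genes that averaged 0.5 RPKM or more over the 6 libraries were tested in each comparison. They numbered 12805, of which 7 were members; PROM1 and SOX2 were too low. A gene was called when its limma test gave a Benjamini-Hochberg adjusted p under 0.05 and its fold change was over 1.5 (0.585 on the log2 scale). Fold changes are on the scale of log2(RPKM + 0.1), which understates the change of genes near 0. In TBX3iso1 against EV, 2 of 7 members were called, 1 higher (ALDH1A3) and 1 lower (ALDH1A1), where 21.5% of all genes tested were called, 7.46% higher and 14.1% lower. In TBX3iso2 against EV, 2 of 7 members were called, none higher and 2 lower (ALDH1A1 and CD24), where 21.2% of all genes were called, 8.94% higher and 12.3% lower. In TBX3iso2 against TBX3iso1, again 2 of 7 were called, both lower in TBX3iso2 (ALDH1A1 and CD24), where 6.29% of all genes were called, 3.47% higher and 2.82% lower. The counts of members against EV were near the shares over all genes, so they say nothing particular about these markers as a set. ALDH1A1, which is in each of the 3 counts, averaged 0.587 RPKM over the 6 libraries and passed the filter only through EV, so that its being called supports nothing about the members. The median log2 difference of the 7 members was -0.11, 0.26 and -0.22 in the 3 comparisons, beside -0.05, -0.00 and 0.05 over all genes tested. Both comparisons against EV share the same 2 EV libraries. The split of all calls depended on the scaling. For TBX3iso1 against EV it was 955 higher and 1802 lower as deposited but 1259 and 1313 after quantile normalization. For TBX3iso2 against TBX3iso1 it was 444 and 361 as deposited, but 351 and 435 after quantile normalization and 344 and 447 after median-ratio scaling. Nothing in the labels says whether the 2 libraries of a line came from separate cultures, so the p-values measure a spread that may be technical.

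**Figure D2:**
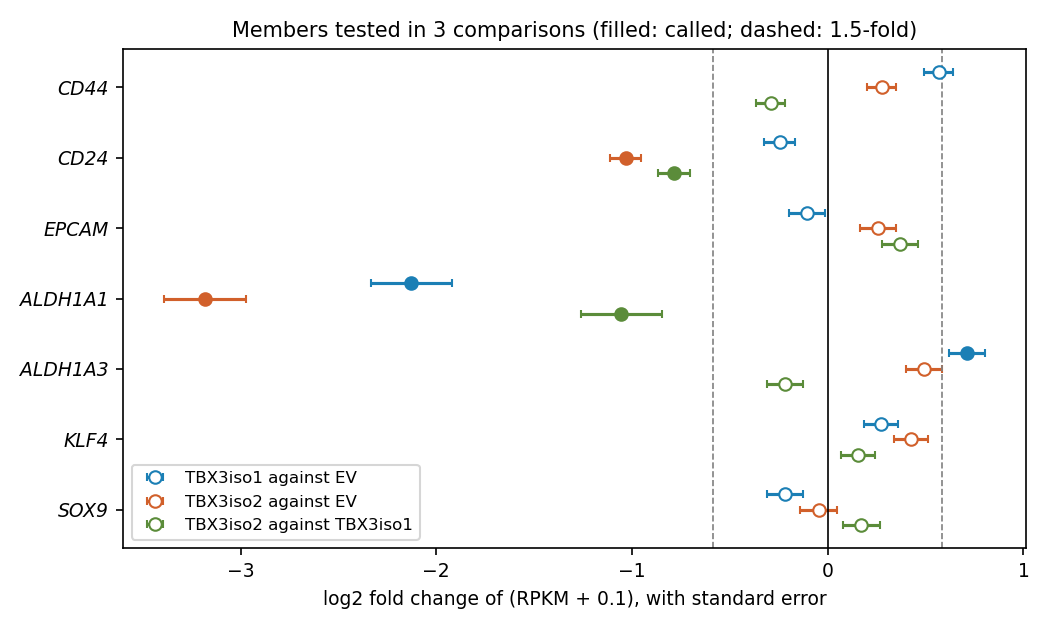
Log2 fold change of RPKM + 0.1 (horizontal axis) with its standard error (bars) for the 7 members tested (vertical axis) in the 3 comparisons (colours). Filled points passed both the adjusted p and the 1.5-fold limit, which the dashed lines mark. ALDH1A1 reaches -2.13 and -3.18 against EV, and CD44 in TBX3iso1 lies just inside the limit at 0.57.

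Among the surface markers, CD24 fell in TBX3iso2. CD24, a small glycosyl-phosphatidylinositol-anchored glycoprotein, was at 78.0 and 81.7 RPKM in EV, 63.7 and 71.2 in TBX3iso1, and 39.0 in each TBX3iso2 library. The lines did not overlap: EV was highest, TBX3iso1 between, and TBX3iso2 was at 0.488 times the EV mean. In bulk RNA, fewer cells with CD24 and less CD24 RNA in each cell cannot be told apart. The log2 difference from EV was -1.03 (SE 0.0800, adjusted p = 7.55e-05, limma with Benjamini-Hochberg adjustment) in TBX3iso2 and -0.25 (adjusted p = 0.0387) in TBX3iso1, which was not called. The 2 TBX3 lines also differed from each other, by -0.79 (TBX3iso2 minus TBX3iso1, adjusted p = 0.00124 in limma). Among 16 alternatives this call was lost only without variance moderation (adjusted p = 0.0517). CD24 values carry an added uncertainty. The GENCODE annotation lifted to GRCh37 holds no CD24 gene but 4 CD24 pseudogenes, on chromosomes 1, 3, 15 and Y, so where its reads were counted is not known.

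CD44, the hyaluronan receptor (chromosome 11, 35160429 to 35253949), went the other way. CD44 was at 52.9 and 53.2 RPKM in EV, 78.0 and 79.2 in TBX3iso1, and 66.7 and 61.8 in TBX3iso2. All 4 TBX3 libraries lay above both EV libraries, and those of TBX3iso1 above those of TBX3iso2. The means were 1.48 and 1.21 times that of EV, with log2 differences of 0.57 (SE 0.0730, adjusted p = 0.000759, limma with Benjamini-Hochberg adjustment) and 0.28 (adjusted p = 0.0177). Neither was called, since both were under 1.5-fold. With median-ratio scaling the TBX3iso1 difference was 0.62 and was called. TBX3iso2 minus TBX3iso1 was -0.29 (adjusted p = 0.0363 in limma), again under the fold limit. RPKM sums the splice forms of CD44, so standard and variant CD44 were not separated.

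The ratio of CD44 to CD24 followed from these values and does not depend on the scaling of a library. It was 0.678 and 0.650 in EV, 1.22 and 1.11 in TBX3iso1, and 1.71 and 1.58 in TBX3iso2. Thus in RPKM CD24 exceeded CD44 in both EV libraries and CD44 exceeded CD24 in the other 4, with no overlap between the lines. Which of them is higher depends on the transcript lengths behind RPKM, and where CD24 reads were counted is not known. The change of the ratio between the lines does not depend on those lengths. The log2 ratio was higher than in EV by 0.81 in TBX3iso1 and by 1.31 in TBX3iso2. These are given as a description, and no model was fitted to the ratio; an exact permutation test of 2 libraries against 2 cannot go below a two-sided p of 0.333. CD44 and CD24 took different parts in the lines: in TBX3iso1 the larger log2 difference was that of CD44 (0.57 against -0.25), and in TBX3iso2 that of CD24 (-1.03 against 0.28).

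**Figure D3:**
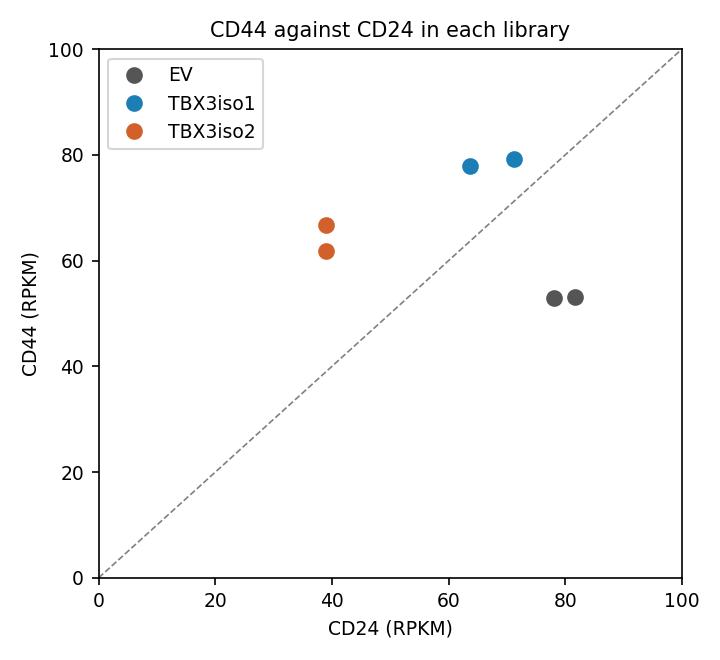
CD44 (vertical axis) against CD24 (horizontal axis), both in RPKM on linear axes from 0, in each of the 6 libraries. The dashed line marks equal values: the EV libraries lie below it, at ratios of 0.678 and 0.650, and the 4 TBX3 libraries above it, at 1.11 to 1.71. Which libraries lie above it depends on the transcript lengths behind RPKM.

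EPCAM, an epithelial adhesion molecule (chromosome 2, 47572297 to 47614740), stayed abundant in every library. It was at 181 and 188 RPKM in EV, 165 and 178 in TBX3iso1, and 210 and 232 in TBX3iso2. TBX3iso1 lay below EV and TBX3iso2 above it, without overlap, but the log2 differences were small (-0.11, adjusted p = 0.366, and 0.26, adjusted p = 0.0515, limma with Benjamini-Hochberg adjustment). Whether they passed the p limit depended on the fit: under quantile normalization the adjusted p was 0.00513 and 0.0493, and with a replicate block the TBX3iso2 difference had 0.0136. The ranges over 16 alternatives were 0.00513 to 0.734 for TBX3iso1 and 0.0136 to 0.269 for TBX3iso2, and under each alternative both were within the 1.5-fold limit. The isoforms differed by 0.37 (adjusted p = 0.0363 in limma), which was under the fold limit. EPCAM was the only one of the 4 surface markers with its highest values in TBX3iso2.

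PROM1, a pentaspan membrane protein (chromosome 4, 15964699 to 16086001), was too low for the filter. It was at 0.142 and 0.0932 RPKM in EV, 0.523 and 0.556 in TBX3iso1, and 0.124 and 0.155 in TBX3iso2. The TBX3iso1 libraries stood apart at 4.60 times the EV mean, whereas those of TBX3iso2 overlapped EV. From the length of the canonical transcript these values correspond to about 107 and 112 reads in TBX3iso1 and about 16.2 to 31.1 in the other 4 libraries. When all 20824 genes were tested without the filter, PROM1 rose in TBX3iso1 (log2 difference 1.57, SE 0.161, adjusted p = 0.00452, limma with Benjamini-Hochberg adjustment), where 16.4% of genes were called. It was lower in TBX3iso2 than in TBX3iso1 (-1.42, adjusted p = 0.0205 in limma), where 3.68% of genes were called, and did not pass in TBX3iso2 against EV (0.15, adjusted p = 0.548). PROM1 overlaps FGFBP2 on the same strand, but FGFBP2 was at 0.0386 RPKM or less in every library.

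The aldehyde dehydrogenases of the ALDH1A group moved in opposite directions. ALDH1A1 (chromosome 9, 75515587 to 75695358) was at 1.37 and 1.5 RPKM in EV, 0.238 and 0.266 in TBX3iso1, and 0.0924 and 0.0490 in TBX3iso2. The lines did not overlap, and the means were 0.175 and 0.0492 times that of EV. ALDH1A1 fell by 2.13 on the log2 scale in TBX3iso1 (SE 0.208, adjusted p = 0.000218, limma with Benjamini-Hochberg adjustment) and fell by 3.18 in TBX3iso2 (SE 0.208, adjusted p = 3.79e-05). Both calls held under each of the 15 alternatives in which ALDH1A1 was tested. It passed the filter only through EV and was not tested with a minimum mean of 2 RPKM, so that these calls and their stability are a description only. The size depended on the pseudocount: from -0.96 with 1 RPKM to -2.47 with 0.01 RPKM in TBX3iso1, and from -1.19 to -4.22 in TBX3iso2. By transcript length the values correspond to about 157 and 136 reads in EV, 25.4 and 28.0 in TBX3iso1, and 9.9 and 4.4 in TBX3iso2. Between the isoforms, both below the filter level, the log2 difference was -1.05 (adjusted p = 0.0160 in limma); ALDH1A1 entered this comparison only through its level in EV. The call was lost with a pseudocount of 1 RPKM (-0.23, adjusted p = 0.0786), with 2 other forms of the fit, and without EV replicate 1 (adjusted p = 0.0504), EV replicate 2 (0.0508) or TBX3iso1 replicate 2 (0.0649), over a range of 0.00688 to 0.0839.

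ALDH1A3 (chromosome 15, 101417919 to 101456831) was the far more abundant of the pair. It was at 49.6 and 48.7 RPKM in EV, 84.1 and 77.1 in TBX3iso1, and 74.5 and 64.2 in TBX3iso2. All 4 TBX3 libraries lay above EV, and the TBX3 lines did not overlap each other. ALDH1A3 rose in TBX3iso1 (log2 difference 0.71, SE 0.0925, adjusted p = 0.000796, limma with Benjamini-Hochberg adjustment). In TBX3iso2 the difference of 0.49 (adjusted p = 0.00406) was under 1.5-fold, and it was called, at 0.60, without TBX3iso2 replicate 2. Between the isoforms the difference was -0.22 (adjusted p = 0.155 in limma, and 0.0486 with a replicate block, over a range of 0.0486 to 0.456), under the fold limit. The gene overlaps the antisense ALDH1A3-AS1, and whether the counting used strand is not given in the sources used here. The same holds for CD44 and SOX9, which antisense genes also overlap.

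Among the other aldehyde dehydrogenases more genes were called lower than higher, which also held over all genes tested. Of 17 further family members, 14 were tested. In TBX3iso1, 6 fell and none rose, with a median log2 difference of -0.52, where 14.1% of all genes were called lower and 7.46% higher and their median was -0.05. In TBX3iso2, 6 fell and 1 rose, with a median of -0.39, where 12.3% of all genes were called lower and 8.94% higher and their median was -0.00. No member of the list was called between the isoforms. ALDH3B2, which oxidizes lipid-derived aldehydes, was at 15.1 and 14.6 RPKM in EV, 0.768 and 0.833 in TBX3iso1 and 0.894 and 0.922 in TBX3iso2, with log2 differences of -4.06 and -3.89 (adjusted p = 1.58e-06 and 1.94e-06, limma with Benjamini-Hochberg adjustment). ALDH6A1, a mitochondrial enzyme of valine breakdown, had log2 differences of -1.77 and -1.5. ALDH3A1, a stress-induced cytosolic enzyme, averaged 25.0 RPKM in EV, 7.93 in TBX3iso1 and 10.5 in TBX3iso2. ALDH3B1 fell by 1.32 and 1.51. The exception, ALDH1B1, a mitochondrial enzyme named here after its values were seen, averaged 13.1 RPKM in EV and 20.0 in TBX3iso2 (log2 difference 0.61), a call that was lost without TBX3iso2 replicate 2 (0.58) and with a pseudocount of 1 RPKM. The 6 lower calls in each line were kept under quantile normalization and median-ratio scaling.

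The retinoid pathway, in which ALDH1A1 and ALDH1A3 act, was followed through 20 further genes of retinol uptake, of retinol and retinaldehyde conversion, and of retinoic acid binding, response and breakdown, and 15 of them were tested. In TBX3iso1, 8 fell and 2 rose (median -0.74), beside 14.1% lower and 7.46% higher over all genes tested. In TBX3iso2, 9 fell and 2 rose (median -0.81), beside 12.3% and 8.94%. RARRES1, a gene named for its response to retinoids, was at 70.6 and 76.4 RPKM in EV, 5.40 and 6.22 in TBX3iso1 and 3.59 and 3.69 in TBX3iso2, with log2 differences of -3.64 and -4.30 (adjusted p = 1.58e-06 and 4.13e-07, limma with Benjamini-Hochberg adjustment). DHRS3, which reduces retinaldehyde back to retinol, averaged 68.6 RPKM in EV, 20.1 in TBX3iso1 and 20.9 in TBX3iso2. RARRES3 fell by 2.05 and 1.03 on the log2 scale, and its TBX3iso1 libraries were at 0.608 and 1.35 RPKM. The TBX3iso1 call was lost in the linear model without moderation (adjusted p = 0.0627). The TBX3iso2 call was lost without EV replicate 1 (-0.90) or EV replicate 2 (-1.16) and in 3 other alternatives. CRABP1, a cellular retinoic acid-binding protein, fell in TBX3iso2 alone by the call (log2 difference -1.62, against 0.10 in TBX3iso1), and the isoforms differed by -1.72 (adjusted p = 0.0109 in limma). The genes that rose were FABP5, a fatty acid-binding protein that also binds retinoic acid (0.97 and 1.22), CYP26B1, which degrades retinoic acid (0.81 in TBX3iso1, lost at 0.68 without EV replicate 2), and DHRS9, a retinol dehydrogenase (1.21 in TBX3iso2), all 3 named after their values were seen. Between the isoforms, DHRS9 and CRABP2 (0.73, also named after its values were seen) were higher in TBX3iso2 and CRABP1 and RARRES1 lower, the last at -0.66 and no longer called without TBX3iso1 replicate 2 (-0.55). The 4 were called beside 6.29% of all genes, and none of them was called without moderation. The CRABP1 call between the isoforms was also lost without the filter, and its call in TBX3iso2 against EV was lost without moderation. CRABP1 averaged 1.01 RPKM in EV and was at 0.793 and 1.47 RPKM in TBX3iso1 and at 0.347 and 0.188 in TBX3iso2. It was under the filter level in TBX3iso2 and was tested only through EV and TBX3iso1, so that its being called supports nothing about the list. Under quantile normalization and median-ratio scaling 8 genes of the list fell in TBX3iso1 and 9 in TBX3iso2 as well, and 2 to 4 rose. The lines also differed in the epithelial, CD14 and PECAM1 levels given above, whose part in these differences was not tested.

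**Figure D4:**
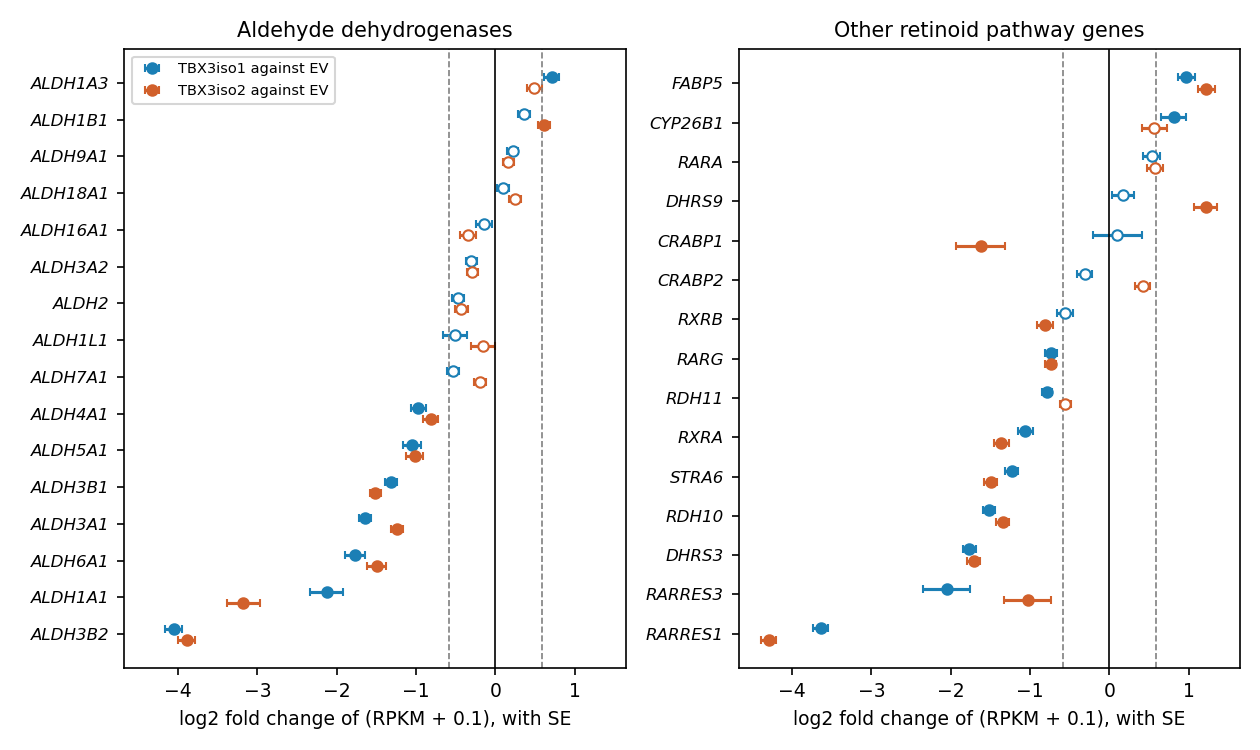
Log2 fold change of RPKM + 0.1 against EV (horizontal axes) with its standard error (bars) for the aldehyde dehydrogenases tested (left, ALDH1A1 and ALDH1A3 included) and for the other retinoid pathway genes tested (right), in TBX3iso1 and TBX3iso2, which share their EV libraries. Filled points were called and dashed lines mark 1.5-fold. ALDH3B2, ALDH1A1 and RARRES1 lie farthest to the left, and ALDH1A3 is the highest of its panel in TBX3iso1, at 0.71.

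Among the pluripotency factors, SOX2 was close to the limit of detection. SOX2 (chromosome 3, 181429713 to 181432224) was at 0.0810 and 0.115 RPKM in EV, 0.0392 and 0 in TBX3iso1, and 0.0194 and 0.0231 in TBX3iso2. Both EV libraries lay above the other 4. The values correspond to about 11.1 and 12.4 reads in EV and at most about 5.0 in any TBX3 library. Without the filter, the log2 differences were -0.74 (adjusted p = 0.0432, limma with Benjamini-Hochberg adjustment) in TBX3iso1 and -0.70 (adjusted p = 0.0490) in TBX3iso2, where 16.3% of genes were called. Both were called, on this handful of reads, and the isoforms did not differ by the test (0.04, adjusted p = 0.969). SOX2 lies within SOX2-OT on the same strand, which was at 0.0166 RPKM or less in every library. Its promoter window was the one with the GGTGTGA match shown above.

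KLF4 and SOX9 were expressed at moderate levels and neither was called. KLF4, a zinc-finger factor of epithelia and of reprogramming (chromosome 9, 110247133 to 110252763), was at 7.83 and 7.86 RPKM in EV, 9.52 and 9.49 in TBX3iso1, and 11.3 and 9.94 in TBX3iso2. All 4 TBX3 libraries lay above EV, but the log2 differences of 0.27 (adjusted p = 0.0354, limma with Benjamini-Hochberg adjustment) and 0.43 (adjusted p = 0.00576) were under 1.5-fold. A pseudogene, KLF4P1, could share reads with it. SOX9 (chromosome 17, 70117161 to 70122557) was at 18.6 and 18.5 RPKM in EV, 16.5 and 15.4 in TBX3iso1, and 19.5 and 16.6 in TBX3iso2. TBX3iso2 spanned the EV values and TBX3iso1 lay below them. The log2 differences were -0.22 (adjusted p = 0.0922 in limma) and -0.05 (adjusted p = 0.711), and the second turned to 0.07 without TBX3iso2 replicate 2. Between the isoforms KLF4 differed by 0.15 (adjusted p = 0.278 in limma) and SOX9 by 0.17 (adjusted p = 0.261).

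Relatives of these factors gave a mixed picture. Of 26 other pluripotency genes, 18 were in the table and 9 were tested. Over all genes tested, 21.5% were called in TBX3iso1 and 21.2% in TBX3iso2. POU5F1 (OCT4), LIN28A and LIN28B averaged 0.00637 RPKM or less in every line. MYC averaged 76.2, 73.0 and 77.1 RPKM in the 3 lines and was not called; it is named here after its values were seen. In TBX3iso1 1 gene of the list rose (KLF2, 0.77) and 1 fell (TFCP2L1, a naive-state factor, -0.92). KLF2 averaged 0.495 RPKM in EV and passed the filter only through the TBX3 lines, so that its being called supports nothing about the list. Its call in TBX3iso1 was lost with a pseudocount of 1 RPKM (0.35). In TBX3iso2, KLF2 rose (1.30), as did TBX3 itself, the transgene, and TFCP2L1 (-0.96) and KLF5 (-0.70, named after its values were seen, and not called without TBX3iso2 replicate 2, at -0.52) fell. Of 17 other SOX genes, 6 were tested and 3 were called in each line, beside 21.5% and 21.2% of all genes tested. SOX4 averaged 7.61 RPKM in EV, 3.64 in TBX3iso1 and 3.71 in TBX3iso2, SOX7 fell by 0.79 and 0.80 on the log2 scale, and SOX18 was at 0.663 and 0.437 RPKM in EV and at 1.01 to 1.16 in the other 4 libraries (0.92 and 0.84). The SOX18 call in TBX3iso2 was lost without EV replicate 2 (0.58), and the calls in both lines were lost with a pseudocount of 1 RPKM and without moderation. Of 16 other KLF genes, 12 were tested, of which 4 were called in TBX3iso1 (2 higher) and 7 in TBX3iso2 (3 higher), beside the same shares over all genes. KLF9 averaged 8.99 RPKM in EV, 3.50 in TBX3iso1 and 3.57 in TBX3iso2. KLF15 averaged 0.989 RPKM in EV, 0.246 in TBX3iso1 and 0.273 in TBX3iso2 and passed the filter only through EV. KLF10 rose by 0.82 and 0.91. The other calls of the list, named after their values were seen, were KLF12 (-0.79) and KLF16 (0.60) in TBX3iso2, beside KLF2 and KLF5 above. KLF16 was not called without EV replicate 2 (0.58) or TBX3iso2 replicate 2 (0.51). KLF6 was at 16.1 and 14.3 RPKM in TBX3iso1 and 32.0 and 22.2 in TBX3iso2. Its difference between the isoforms (0.81, Benjamini-Hochberg adjusted p = 0.0148 in limma) dropped below 1.5-fold without TBX3iso2 replicate 1 (0.55), and the call was also lost without moderation and without the filter. The median of the KLF list was -0.23 in TBX3iso1 and -0.24 in TBX3iso2, and that of the SOX list -0.41 and -0.39.

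Other surface proteins used to mark mammary or breast cancer stem and progenitor cells moved in both directions. Of 20, 13 were tested: 3 rose and 2 fell in TBX3iso1, and 4 rose and 3 fell in TBX3iso2, with medians of 0.05 and -0.19. Over all genes tested, 21.5% and 21.2% were called. CXCR4, the receptor of the chemokine CXCL12, was at 0.586 and 0.443 RPKM in EV, 2.37 and 2.46 in TBX3iso1 and 1.86 and 1.58 in TBX3iso2 (log2 differences 2.04 and 1.57, adjusted p = 8.22e-05 and 0.000262, limma with Benjamini-Hochberg adjustment). NT5E (CD73), which makes extracellular adenosine, averaged 101 RPKM in EV, 279 in TBX3iso1 and 164 in TBX3iso2. It rose in both lines and was lower in TBX3iso2 than in TBX3iso1 (-0.77, adjusted p = 0.00237 in limma). The call between the isoforms was lost in the linear model without moderation (adjusted p = 0.0545). PROCR, the endothelial protein C receptor and a marker of mammary stem cells, averaged 5.78, 6.30 and 12.9 RPKM; it rose in TBX3iso2 (1.14), and the isoforms differed by 1.02 (adjusted p = 0.000416 in limma). MUC1, a mucin of luminal cells, fell from 171 RPKM in EV to 53.7 in TBX3iso1 and 47.6 in TBX3iso2. Further calls, named after their values were seen, included ITGA6 (CD49f, 0.98 and 0.78), LGR4 (-0.62 in TBX3iso1, but -0.55 without EV replicate 1 and -0.48 without TBX3iso1 replicate 2, neither called) and CD9 (-0.71 in TBX3iso2).

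Several genes that make hyaluronan or bind CD44 differed between the isoforms. Of 16 genes of hyaluronan and CD44, 12 were tested, of which 2 rose and 2 fell in TBX3iso1, 1 rose and 3 fell in TBX3iso2, and none was higher and 3 were lower in TBX3iso2 than in TBX3iso1. Over all genes tested the shares called were 21.5%, 21.2% and 6.29% (3.47% higher and 2.82% lower). HAS2, a hyaluronan synthase, was at 2.53 and 2.90 RPKM in EV, 4.57 and 4.63 in TBX3iso1, and 2.07 and 1.42 in TBX3iso2. It differed between the isoforms by -1.37 (adjusted p = 0.00282, limma with Benjamini-Hochberg adjustment), a call lost only without moderation among 16 alternatives. The calls against EV were less stable. That of TBX3iso1 (0.74) was lost without EV replicate 1 (0.65) and without moderation. That of TBX3iso2 (-0.63) was lost in 7 of 16 alternatives, among them without TBX3iso2 replicate 2 (-0.38), EV replicate 1 (-0.73) or EV replicate 2 (-0.54). SPP1 (osteopontin), a CD44 ligand, averaged 5.75, 8.37 and 2.84 RPKM, with a difference between the isoforms of -1.52 (adjusted p = 0.000182 in limma). SRGN, a CD44-binding proteoglycan core, averaged 0.908, 0.884 and 0.247 RPKM, and differed between the isoforms by -1.5 (adjusted p = 0.00545 in limma). SRGN was under the filter level in TBX3iso2 and was tested only through EV and TBX3iso1, so that its being called supports nothing about the list. Without moderation, SPP1 was the 1 gene of the list still called between the isoforms. HAS3 rose in both lines (0.69 and 0.99), and its call in TBX3iso1 was lost with a pseudocount of 1 RPKM (0.47) and without moderation. ESRP2, a splicing regulator of epithelial CD44 forms, fell in TBX3iso1 (-0.72) and was at -0.38 in TBX3iso2, under the fold limit; the related ESRP1, named after its values were seen, was at -0.60 in TBX3iso1, called, but not without EV replicate 1 (-0.57) or TBX3iso1 replicate 2 (-0.54).

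The genes whose pattern over the 6 libraries lay nearest to that of a marker were found by the root mean square distance of log2 values, each taken from the EV mean. Nearest to ALDH1A1 were UNC5B (distance 0.152), GPNMB (0.176) and CASP14 (0.215). CASP14, a caspase of keratinizing epithelium, was at 22.2 and 20.9 RPKM in EV, 4.89 and 4.45 in TBX3iso1, and 2.06 and 1.57 in TBX3iso2, so that it stepped down from line to line as ALDH1A1 did but at a higher level. Among the genes nearest to CD24 were ARRDC2 (0.0561) and ACSL5 (0.0945). Nearest to ALDH1A3 were FAM111B (0.0329), PRKCA (0.0586) and DPY19L1 (0.0616). With 6 libraries in 3 lines such likeness is a description only.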

How the data were processed

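RNA-Seq was measured in 6 libraries of stably transfected 21NT cells, 2 for each of 3 lines. The authors prepared stranded mRNA libraries and deposited 1 table of RPKM per gene with the alignments per library. TopHat, Partek and build hg19 are named in the submitters' processing notes; software versions and the gene annotation are not given in the sources used here. Per the study's methods a read could align to several places, which bears on genes with copies.

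From the deposited RPKM, log2(RPKM + 0.1) was fitted with limma 3.58.1 (R 4.3.3; trended moderation, 1 mean per line, all 6 libraries), a method tested on simulated data. A filter that kept 12805 of 20824 genes (average of 0.5 RPKM or more) preceded the test, with Benjamini-Hochberg adjustment over all of them; calls needed an adjusted p under 0.05 and a fold over 1.5. No gene counts were used. Read numbers are approximate, from RPKM, alignments and the canonical GENCODE transcript length (GRCh37), and cover counting only. Named genes were all members, TBX3, from each list at most 3 called genes of largest change with no overlap per comparison against EV, and the 3 nearest patterns of the 3 most changed members; genes outside this rule are said to be so, and some genes that it or a count covers are not reported here. Members and lists were chosen with earlier results of these data known. SRY was left out, and protein sequences were not used here. Alternatives covered pseudocount, filter, scaling, moderation, the libraries fitted, a replicate block and leaving out each library.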

Additional observations from a re-analysis of the deposited data

How the results depend on the processing

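Of 387 alternative values of single genes, 370 kept their direction and call, 7 lost the call, 9 gained it and 1 turned: SOX9 in TBX3iso2 against EV lay between -0.16 and 0.069 with 1 library left out, and only without TBX3iso2 replicate 2 was it above 0. The cause was not tested. With a pseudocount of 1 RPKM, 1812 genes were called in TBX3iso1 against EV and 419 in TBX3iso2 against TBX3iso1 (2757 and 805 with 0.1), and 1 member was called in the latter. With a minimum mean of 2 RPKM, ALDH1A1 was no longer tested and 1 of 6 members was called in each of the 3 comparisons. Of the 10313 genes then tested, 1847 were called in TBX3iso1 against EV, 1894 in TBX3iso2 against EV and 504 between the isoforms. Without a filter 4 of 9 members were called in TBX3iso1 against EV, PROM1 and SOX2 among them, beside 16.4% of all genes. Between the isoforms, 1 member was called when only the lines compared were fitted, none without moderation (199 genes), and 1 to 2 with 1 library left out. The replicate block, from the numbers in the labels, changed none of 24 calls (7 members and TBX3, in 3 comparisons), and 900 genes were called between the isoforms under it. The replicate differences correlated across genes at 0.22 (EV and TBX3iso1), 0.11 (EV and TBX3iso2) and 0.50 (TBX3iso1 and TBX3iso2), but with 2 libraries a line the numbers were not taken as pairs. Where a line was left with 1 library, its spread was taken from the other lines. The values of PROM1, SOX2 and, in the TBX3 lines, ALDH1A1 rest on few reads.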
